A study of Mus musculus with 34 samples.

Results

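The comparison was encorafenib against the solvent DMSO in the mouse colorectal cancer line NaJa-D after 1 day. It used 6 of the 34 libraries of the series, 3 per treatment, chosen by their titles, and all 14107 genes of the count table. The series has 3 lines of this kind (NaJa-F and NaJa-G are the others), each with either agent at day 1 and day 5. NaJa-D grew out of the peritoneal lavage of 1 C57BL/6N mouse that had been transplanted in the colon wall with organoids. It therefore stands for cells from a single mouse and a single engineered background. The organoids carried VillinCreERT2, a tamoxifen-inducible Cre recombinase driven by the gut epithelial Villin promoter, together with BrafV600E/+, Trp53R172H and a deletion of Apc (APCdel). Treated and control cells therefore shared a constitutively active BRAF kinase, a mutant p53 and loss of the APC brake on WNT signalling. The paper reports that the lines lost their wild-type Trp53 allele over passages in culture. Cells received 0.5 µM encorafenib or DMSO in fresh medium with serum, and RNA was taken 1 day later.

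BRAF passes the growth factor signal from RAS through the kinase MEK to the kinase ERK, and the V600E form does so without an upstream signal. Encorafenib occupies the ATP pocket of the mutant kinase. ERK induces its own inhibitors (DUSP phosphatases, Sprouty and SPRED proteins) and transcription factors of the ETS and AP-1 families, and it drives cells into the cycle through MYC and D cyclins. In colorectal cells, loss of these feedback inhibitors is known to let receptor kinases such as EGFR switch ERK back on, so mRNAs of the inhibitors and receptors are usually read side by side.

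Total counts per library lay between 47072398 and 67688101. Epithelial markers were high, and gut markers were lower. Cdh1 (E-cadherin) was 1377, 1512 and 1571 CPM in the DMSO libraries and 1295, 1414 and 1688 CPM in the encorafenib libraries, and the summed level of 10 colon epithelium markers was 5652 to 5817 CPM in DMSO and 6334 to 8336 CPM in encorafenib, where CPM are counts scaled by the library total with TMM factors. The defining colon factor Cdx2 was low, at 21.2, 22.7 and 19.0 CPM in the DMSO libraries and 12.7, 12 and 14.6 CPM in the encorafenib libraries. In the DMSO libraries, Lgals4 was 1.01, 1.17 and 1.03 CPM and Cdh17 was 51.8, 54.3 and 56.8 CPM. Of the 10 markers, 4 rose with encorafenib and 3 fell (Cdx2, Cdh17 and Epcam), so the summed level does not stand for each of them. One control library, DMSO replicate 3, is titled NaJa-D but has NaJa-G in its cell line field. Its log2 CPM correlated across genes at r = 0.995 or more, to 3 digits, with the other NaJa-D controls and at most at 0.920 with the NaJa-G controls, and it was kept under its title. Nothing in the labels says that replicates were separate cultures, so the p-values measure the spread between these libraries, which may be technical. Counts cannot show the engineered base changes. Braf was 35.5, 33.6 and 36.1 CPM in the DMSO libraries and 46.6, 42.7 and 36.3 CPM in the encorafenib libraries, Trp53 was 136, 129 and 131 CPM in the DMSO libraries and 117, 113 and 117 CPM in the encorafenib libraries and Apc was 172, 148 and 160.2 CPM in the DMSO libraries and 166, 158 and 172 CPM in the encorafenib libraries. Of the genes of the engineered alleles, none passed limma's test, with adjusted p = 0.0725, 0.0398 and 0.663.

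Encorafenib replicate 3 lay apart from replicates 1 and 2 before any gene was tested. The spread was small in DMSO and in encorafenib replicates 1 and 2, where the median SD of a gene's log2 CPM was 0.0983 and 0.0520, while it was 0.149 over all 3 encorafenib libraries. The genes farthest below in replicate 3 were led by Neat1, a noncoding RNA that builds nuclear paraspeckles. Neat1 was 56.3, 75.5 and 80.8 CPM in the DMSO libraries and 377, 449 and 59.9 CPM in the encorafenib libraries. Encorafenib replicates 1 and 2 were high, and replicate 3 sat at the level of the controls. Firre, another nuclear noncoding RNA, was 2.38, 3.58 and 2.99 CPM in the DMSO libraries and 23.4, 23.2 and 3.52 CPM in the encorafenib libraries, and Rsrp1, which encodes an arginine and serine rich protein, was 38.3, 48.9 and 48.6 CPM in the DMSO libraries and 195, 201 and 36.1 CPM in the encorafenib libraries, with the same split.

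The other genes lowest in replicate 3 relative to replicates 1 and 2 were Lmntd2, Tle2, Zfp692, Slc9a5, Atg9b, Mir31 and Ankrd16, from -2.12 for Ankrd16 to -2.48 for Lmntd2 on the log2 scale. On the other side stood Pih1d2, Iqsec3, Ccdc85b, Ier5l, Gm23935, Tpgs1, 2310039H08Rik, Dmrta2, Gm42418 and Nr2f6, from 1.91 for Pih1d2 to 0.80 for Nr2f6. None of these 20 genes passed the test between treatments. Tle2, a Groucho co-repressor of Notch and WNT target genes, came closest, at 1.24, 1.41 and 0.832 CPM in the DMSO libraries and 39.0, 36.1 and 7.18 CPM in the encorafenib libraries (adjusted p = 0.0148, limma). All 3 encorafenib libraries of Tle2 were above the controls, and replicate 3 was the lowest of them. The Mir31 counts are those of its locus in RNA-seq and do not measure the mature miRNA.

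A list of 17 transcripts known for nuclear retention or retained introns (Neat1, Malat1, Firre, the kinases Clk1 and Clk4, the cyclins Ccnl1 and Ccnl2, Rsrp1, Leng8, Pnisr, Arglu1, Luc7l, Luc7l3, Srsf5, Srsf11, Rbm5 and Ogt) was then drawn up with these values in view, so it is a description and no test. Its mean was 5.82, 6.04 and 6.10 log2 CPM in the DMSO libraries and 7.28, 7.31 and 5.80 log2 CPM in the encorafenib libraries. Replicates 1 and 2 were above every other library of the series, and replicate 3 was just below the lowest control. The median log2 fold change of the list was 1.11 in replicates 1 and 2 (0.12 to 2.97) and -0.28 in replicate 3 (-0.46 to 0.26). Of its members, 0 of 17 passed limma's test with all 6 libraries and 16 passed without replicate 3. Replicates also split in this measure in other day 1 groups, by 1.09 log2 CPM among the NaJa-F controls, by 1.08 among the NaJa-G controls and by 0.645 in NaJa-G with encorafenib, whereas no day 5 group split by more than 0.298. Across 10186 genes with a mean of at least 2 log2 CPM, the difference between split replicates in the other lines and that between NaJa-D encorafenib replicates 1 and 2 and replicate 3 had a correlation of r = 0.910, a description over genes with libraries picked by this same list. The difference in the other lines also correlated with the log2 fold changes over DMSO of NaJa-D encorafenib replicates 1 and 2 (r = 0.474). With those of replicate 3 the correlation was r = -0.126. The part of RNA extraction, library preparation or cell state in the split was not tested.

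**Figure D1:**
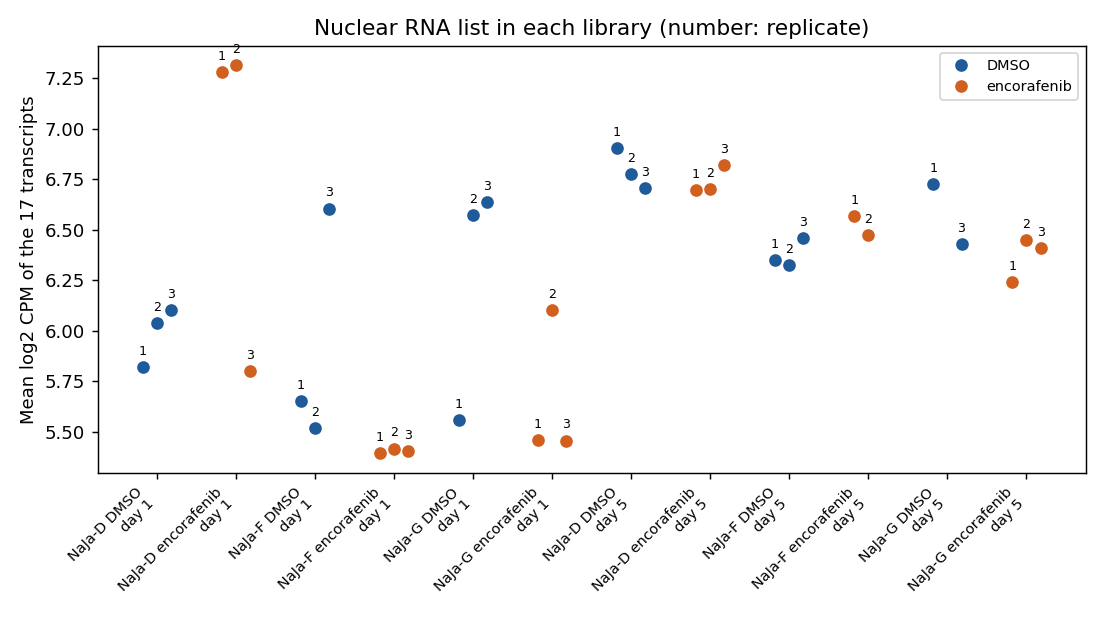
Mean log2 CPM of the 17 nuclear transcripts (vertical axis) in each of the 34 libraries, by line, agent and day (horizontal axis); numbers give the replicate. In NaJa-D at day 1, encorafenib replicates 1 and 2 sit at 7.28 and 7.31 and replicate 3 at 5.80, beside controls at 5.82 to 6.10.

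At an adjusted p below 0.01 (limma, Benjamini-Hochberg over all genes), 3540 of 14107 genes changed (25.1%), of which 1715 rose (12.2% of all genes) and 1825 fell (12.9%). A change of at least 1 on the log2 scale was seen in 876 of them, 584 up and 292 down, so large changes were more often increases. All 3540 genes moved the same way in replicate 3 as in replicates 1 and 2, and their control and treated libraries did not overlap. The median ratio of the log2 fold changes, replicate 3 to replicates 1 and 2, was 0.868 (quartiles 0.663 and 1.10). Replicate 3 was in the fit that called these genes, so this follows largely from the call and is no separate support. Over all genes, called or not, the log2 fold changes of replicates 1 and 2 and of replicate 3 had a correlation of r = 0.751. Over all genes the groups did not overlap in 54.5%. Leaving out encorafenib replicate 3 raised the count to 7637 genes (54.1%), 3876 higher and 3761 lower. These held all 3540 genes and 4097 more, and 1048 of the 4097 (25.6%) had the opposite sign in replicate 3. With all 34 libraries in the fit, 6335 genes passed (44.9%). Scaling by library size alone moved the split between directions, with 2089 higher and 1356 lower, since the median of all genes was then 0.11 and not 0.01. Leaving out any 1 of the other 5 libraries, which leaves fewer samples in the test, lowered the count to between 1463 and 2149, and 1282 of the 3540 genes passed in every such fit. Of the 255 genes named here that passed with all 6 libraries, 153 passed in every fit and 102 lost the call in at least 1, among them Plk1, Myc, Areg and Met. In the accounts that follow, values use all 6 libraries. The counts of each list without replicate 3 are given beside them, and in brackets those higher and lower without another of the 5 libraries, as a range. In many lists the share of members called in either direction was near that of all genes (25.1%). These included the ETS, EGFR, other receptor kinase, insulin and PI3K, D cyclin, Notch, TGF-beta and transition lists. The caspase, p53 target, cholesterol, glycolysis, respiratory chain, lysosome, NRF2, heat shock, clock and glucose sensing lists were near it too. The counts of all these in either direction are no result about the lists. In the EGFR, cholesterol and respiratory chain lists all calls were lower, and in the insulin and p53 target lists all were higher. No test compared such lists with the 12.9% of all genes called lower or the 12.2% called higher. In bulk RNA, fewer cells of a kind and less RNA per cell cannot be told apart.

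**Figure D2:**
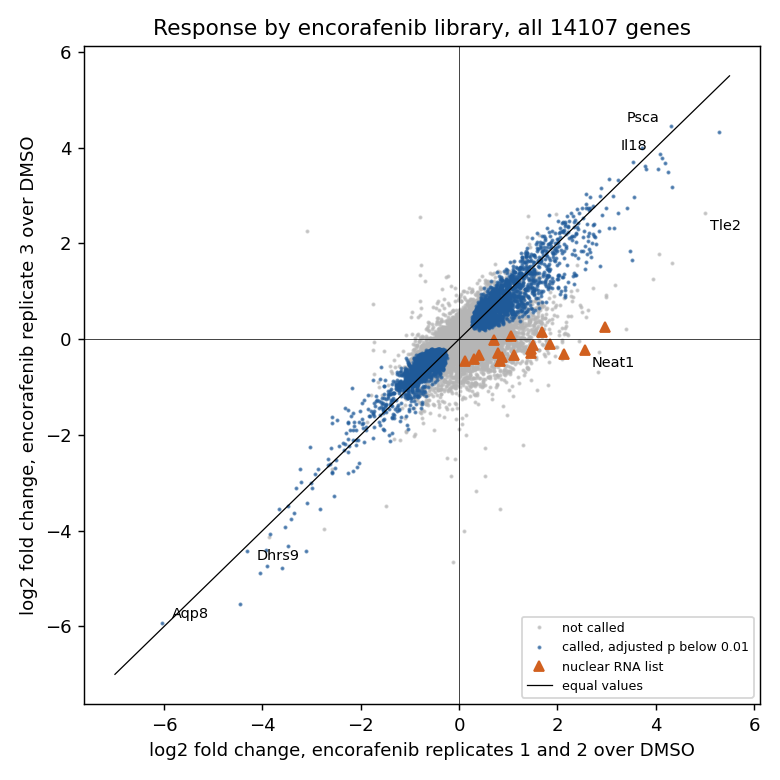
Log2 fold change over DMSO of every gene in encorafenib replicates 1 and 2 (horizontal) and in replicate 3 (vertical); blue points passed the test with all 6 libraries, grey did not, and orange triangles are the 17 nuclear transcripts. The blue points follow the line of equal values in both directions, from Aqp8 to Psca, and the triangles lie along 0 in replicate 3. Replicate 3 was part of the test that picked the blue points.

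Among mRNAs of the ERK pathway itself, the feedback inhibitors moved in both directions, also within the Sprouty and DUSP families. Of the 14 members, 4 rose, 6 fell and 4 did not pass the test, with a median log2 fold change of -0.44. Sprouty and SPRED genes, whose proteins block the step from receptors to RAF, gave most of the falls. Spry4 was 9.77, 10.2 and 10.0 CPM in the DMSO libraries and 2.91, 2.96 and 3.37 CPM in the encorafenib libraries, and Spry2 was 47.0, 46.1 and 48.8 CPM in the DMSO libraries and 25, 25.7 and 32.1 CPM in the encorafenib libraries. In both genes the highest treated library, replicate 3, was below the lowest control. The log2 fold changes were -1.70 (SE 0.10, adjusted p = 2.45e-05) for Spry4 and -0.79 (SE 0.10, adjusted p = 0.000637) for Spry2, beside -0.97 for Spred2 and -0.65 for Spred1, while Spry1 rose by 0.33. Of the phosphatases, Dusp6, the cytoplasmic ERK phosphatase, was 128, 124 and 129 CPM in the DMSO libraries and 80.01, 83.0 and 93.3 CPM in the encorafenib libraries. It fell by 0.57 on the log2 scale, as Dusp5, its nuclear counterpart, fell by 0.63. Dusp4 did not pass (-0.31). Dusp1, Dusp8 and Dusp10, which act mainly on the stress kinases p38 and JNK, rose (1.13, 0.86 and 0.87). Without encorafenib replicate 3 the list held 5 higher and 8 lower (3 and 6 without another), beside 27.5% and 26.7% of all genes.

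The transcription factors below ERK changed in part, and the ETS factors Etv4 and Etv5, which depend most closely on it, were among the larger falls. Etv5 was 26.9, 26.5 and 24.5 CPM in the DMSO libraries and 5.68, 7.0 and 7.77 CPM in the encorafenib libraries (log2 fold change -1.95, SE 0.12, adjusted p = 2.39e-05), and Etv4 was 73.6, 75.8 and 68.4 CPM in the DMSO libraries and 29.9, 34.5 and 28.8 CPM in the encorafenib libraries (log2 fold change -1.23, SE 0.09, adjusted p = 5.18e-05). The groups were well apart in each. Of the 13 ETS genes, 1 rose, 3 fell and 9 did not pass the test, with a median log2 fold change of 0.04. The riser was Elf3, an epithelial ETS factor (0.38), and the remaining fall was that of Gabpa (-0.33). Etv1 was close to 0 CPM in every library. Among 17 AP-1 and immediate early genes, 3 rose, 3 fell and 11 did not pass the test, with a median log2 fold change of 0.10. Fosl1 (FRA-1), the AP-1 subunit that sustained ERK signalling keeps up, was 73.6, 69.5 and 69.8 CPM in the DMSO libraries and 36.1, 39.4 and 39.0 CPM in the encorafenib libraries (log2 fold change -0.90, SE 0.07, adjusted p = 7.25e-05); it overlaps Ccdc85b, and the use of strand in the counting was not given in the sources used here. Myc fell by 0.51 and Fosb by 0.52 on the log2 scale. Fosl2 (0.59), Ier3 (0.67) and Atf3 (0.47) rose. Egr1, an immediate target of ERK through serum response factor, was 13.9, 11.7 and 11.7 CPM in the DMSO libraries and 13.5, 13.3 and 14.4 CPM in the encorafenib libraries, and its groups overlapped. Jun, Junb and Jund did not pass and were each higher in replicate 3 than in replicates 1 and 2, with log2 fold changes of 0.09 and 0.89 for Jund. The AP-1 list held 5 higher and 5 lower (2 and 1 to 2 without another) and the ETS list 3 higher and 4 lower (0 to 1 and 2 without another) without encorafenib replicate 3.

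Few genes of the kinases that carry the signal passed the test. Of 20 genes from RAS to ERK, 2 rose, 0 fell and 18 did not pass the test, with a median log2 fold change of 0.02. Among the risers was the RAS relative Rras, at 15.9, 14.9 and 12.9 CPM in the DMSO libraries and 25.4, 24.2 and 31.4 CPM in the encorafenib libraries (0.88). Map2k1 and Mapk3, encoding MEK1 and ERK1, were 101, 94.7 and 88.9 CPM in the DMSO libraries and 80.2, 79.0 and 94.1 CPM in the encorafenib libraries, and 137, 132 and 122 CPM in the DMSO libraries and 131, 133 and 153 CPM in the encorafenib libraries, respectively. Neither passed the test. For the EGFR family and its ligands, 0 rose, 4 fell and 10 did not pass the test, with a median log2 fold change of -0.05, out of 14. Egfr itself was 120.0, 123 and 134 CPM in the DMSO libraries and 126, 128 and 146 CPM in the encorafenib libraries, and its groups overlapped, and Erbb3 was 170.1, 196 and 191 CPM in the DMSO libraries and 209, 212 and 211 CPM in the encorafenib libraries (adjusted p = 0.0938). The falls were in the ligands Btc (-0.83) and Areg (-0.55) and in the receptor's inhibitors Errfi1 (MIG6, -0.74) and Lrig1 (-0.68). Errfi1 was 107, 101 and 107 CPM in the DMSO libraries and 61.5, 62.7 and 63.8 CPM in the encorafenib libraries, and Btc was 24.9, 26.0 and 25.7 CPM in the DMSO libraries and 13.5, 15.8 and 14.0 CPM in the encorafenib libraries; in both genes all treated libraries were below all controls.

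Of 21 other receptor tyrosine kinases, 2 rose, 4 fell and 15 did not pass the test, with a median log2 fold change of -0.08. The receptors that fell were Epha4 (-1.32), Axl (-0.75), Ret (-0.62) and Met (-0.49), and those that rose were Fgfr3 (1.001) and Insr (0.31). Met, the receptor for hepatocyte growth factor, was 445, 456 and 508 CPM in the DMSO libraries and 301, 319 and 385 CPM in the encorafenib libraries. All treated libraries were lower than the controls, replicate 3 the least so. Axl, a receptor often raised in drug-tolerant cells, was 40.7, 42.1 and 45.2 CPM in the DMSO libraries and 21.3, 23.8 and 32.5 CPM in the encorafenib libraries and fell in all 3 treated libraries. In the insulin and PI3K branch, 20 genes were tested, and 5 rose, 0 fell and 15 did not pass the test, with a median log2 fold change of 0.16. Among the risers were the PI3K regulatory subunits Pik3r3 (0.74) and Pik3r1 (0.56) and the transcription factors Foxo4 (0.62) and Foxo6, which was 3.51, 3.84 and 3.03 CPM in the DMSO libraries and 9.68, 8.36 and 12.1 CPM in the encorafenib libraries (1.52). Without encorafenib replicate 3 these 20 genes held 8 higher and 0 lower (3 to 4 and 0 without another), the 14 EGFR genes 1 higher and 6 lower (0 and 3 to 4 without another), the 21 other receptors 3 higher and 6 lower (1 and 1 to 2 without another), and the 20 core genes 4 higher and 5 lower (1 to 2 and 0 without another).

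**Figure D3:**
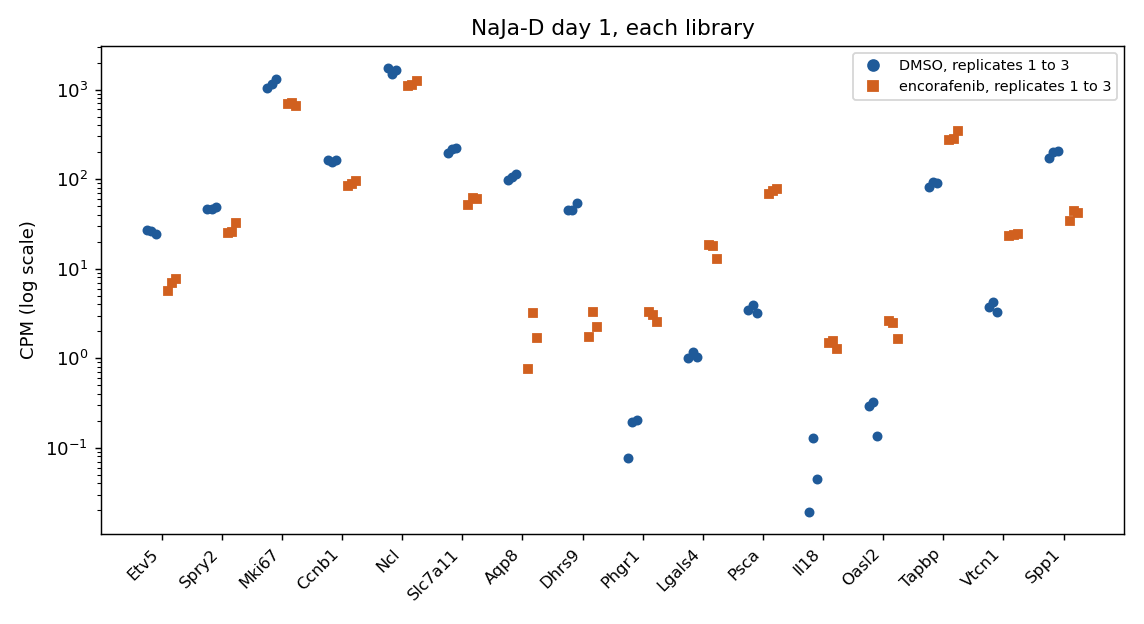
CPM on a log scale (vertical axis) of 16 genes (horizontal axis) in the 3 DMSO (blue circles) and 3 encorafenib libraries (orange squares) of NaJa-D at day 1, in replicate order from left to right. The squares lie below the circles from Etv5 to Dhrs9 and in Spp1, and above them in Phgr1, Lgals4, Psca, Il18, Oasl2, Tapbp and Vtcn1; the lowest points, such as Il18 in DMSO, stand for a few reads.

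Genes of cell division fell nearly as a whole list, by small amounts. Of 22 mitosis genes, 0 rose, 21 fell and 1 did not pass the test, with a median log2 fold change of -0.64. Mki67, the Ki-67 proliferation antigen, was 1045, 1153 and 1311 CPM in the DMSO libraries and 695, 713 and 658 CPM in the encorafenib libraries. Ccnb1, the cyclin that starts mitosis, was 163, 156 and 162 CPM in the DMSO libraries and 84.1, 87.8 and 95.0 CPM in the encorafenib libraries. Plk1, a mitotic kinase, was 169.8, 167 and 161 CPM in the DMSO libraries and 87.0, 91.4 and 118 CPM in the encorafenib libraries. In each of these the treated libraries were below every control, with log2 fold changes of -0.76 (SE 0.10), -0.85 (SE 0.07) and -0.76 (SE 0.12). In Plk1, replicate 3 stood above the other treated libraries. The other falls lay between -0.34 for Foxm1, the factor that induces the mitosis genes, and -0.83 for Cdc20, the activator of the anaphase complex. The member that did not pass was the spindle motor Kif11 (-0.26). The count was 0 higher and 21 lower (0 and 16 to 20 without another) without encorafenib replicate 3, and that library alone gave a median of -0.57, beside -0.65 in replicates 1 and 2.

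Genes of DNA replication fell in part. Of 24 S phase genes, 0 rose, 11 fell and 13 did not pass the test, with a median log2 fold change of -0.38, and 19 fell without encorafenib replicate 3, beside 2 to 7 without another library. The falls included the replicative helicase genes Mcm3, Mcm4, Mcm5 and Mcm7 (-0.44 to -0.57), the licensing factor Cdt1 (-0.59) and the nucleotide enzyme Tyms (-0.51). Pcna did not pass the test (221, 206 and 207 CPM in the DMSO libraries and 162, 159.9 and 186 CPM in the encorafenib libraries), although its groups did not overlap. Among 16 D cyclins, their kinases and the CDK inhibitors, 3 rose, 1 fell and 12 did not pass the test, with a median log2 fold change of -0.004. Ccnd1 (cyclin D1), a classical ERK target, was 562, 500.2 and 478 CPM in the DMSO libraries and 367, 361 and 479.9 CPM in the encorafenib libraries. It was low in replicates 1 and 2, and replicate 3 was within the range of the controls, so no fall was called (adjusted p = 0.0509); without replicate 3 the adjusted p was 3.61e-05. Cdk4 fell by 0.35 on the log2 scale, and its relative Cdk6 rose, at 268, 256 and 268 CPM in the DMSO libraries and 421, 383 and 362 CPM in the encorafenib libraries (0.56). The CDK inhibitors Cdkn2b (p15) and Cdkn1a (p21) rose by 0.64 and 0.43. Without replicate 3 the list held 6 higher and 6 lower (0 to 3 and 0 without another).

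The CCAAT box, which the factor NF-Y binds, and the cell cycle homology element TTTGAA, which the DREAM and MMB complexes bind, are known from promoters of mitosis genes. In RefSeq promoters (GRCm38.p6, the 250 bases before the start site, 10225 genes of the table matched), CCAAT stood on either strand in 16 of 17 matched mitosis genes (94.1%) and in 3714 of all 10225 promoters (36.3%), and TTTGAA in 6 of 17 (35.3%) and in 10.4% of all. In the other lists searched, CCAAT ran from 21.1% (ribosome biogenesis) to 68.8% (antigen loading, 11 of 16) and TTTGAA from 0% (ETS) to 8.33%. Searched too in the 17 mitosis promoters, the E-box CACGTG was in 5.88% (8.39% of all promoters). The AP-1 site TGANTCA was in 0% (4.63% of all) and the ETS site CCGGAAG in 23.5% (13.9% of all). The promoters of 4 genes that fell are shown here 5′ to 3′ on the gene's strand, with CCAAT and TTTGAA, on either strand, in capitals. A match is a description of these letters and not proof of a bound site.
Cdc20, chr4:118437344-118437593, minus strand: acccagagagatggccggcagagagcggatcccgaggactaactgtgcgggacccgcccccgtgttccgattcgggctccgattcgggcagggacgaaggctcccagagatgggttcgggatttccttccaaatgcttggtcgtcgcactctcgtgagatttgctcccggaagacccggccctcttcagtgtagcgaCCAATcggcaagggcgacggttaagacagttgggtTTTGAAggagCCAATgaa
Ccnb1, chr13:100786487-100786736, minus strand: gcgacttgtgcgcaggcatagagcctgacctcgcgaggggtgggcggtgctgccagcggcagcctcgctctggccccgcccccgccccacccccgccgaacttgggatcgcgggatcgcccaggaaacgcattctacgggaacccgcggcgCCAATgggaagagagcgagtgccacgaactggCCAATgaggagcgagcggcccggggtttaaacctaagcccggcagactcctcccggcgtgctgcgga
Plk1, chr7:122159185-122159434, plus strand: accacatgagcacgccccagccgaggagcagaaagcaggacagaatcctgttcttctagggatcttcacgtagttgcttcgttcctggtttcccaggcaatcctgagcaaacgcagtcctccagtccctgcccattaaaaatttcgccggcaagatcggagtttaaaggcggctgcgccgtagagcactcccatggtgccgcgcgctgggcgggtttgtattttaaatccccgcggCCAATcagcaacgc
Cdk1, chr10:69352913-69353162, minus strand: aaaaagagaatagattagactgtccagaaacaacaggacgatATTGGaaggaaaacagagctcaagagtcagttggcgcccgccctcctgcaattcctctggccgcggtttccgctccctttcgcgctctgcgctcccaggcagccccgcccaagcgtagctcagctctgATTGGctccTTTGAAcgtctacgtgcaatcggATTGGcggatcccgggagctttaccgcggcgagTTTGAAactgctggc

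Cdc20, with a TTTGAA between its CCAAT boxes, was 128, 135 and 125 CPM in the DMSO libraries and 66.9, 71.1 and 81.0 CPM in the encorafenib libraries (-0.83), and Cdk1, with several of either motif, was 188, 174 and 183 CPM in the DMSO libraries and 119, 121 and 137 CPM in the encorafenib libraries (-0.53). Ccnb1 and Plk1, printed above with CCAAT alone, fell by 0.85 and 0.76 on the log2 scale.

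Genes that make ribosomes fell by similarly small amounts. Of 24 ribosome biogenesis genes, 0 rose, 22 fell and 2 did not pass the test, with a median log2 fold change of -0.51. Ncl, encoding nucleolin, was 1739, 1512 and 1668 CPM in the DMSO libraries and 1086, 1120.0 and 1249.9 CPM in the encorafenib libraries. Odc1, the first enzyme of polyamine synthesis and a known MYC target kept in this list, was 408, 359.7 and 379.6 CPM in the DMSO libraries and 198, 205 and 265 CPM in the encorafenib libraries. Polr1b, a subunit of RNA polymerase I, was 123, 117 and 127 CPM in the DMSO libraries and 72.1, 72.2 and 78.8 CPM in the encorafenib libraries. All treated libraries of these 3 genes were below the controls, with log2 fold changes of -0.51, -0.79 and -0.71. The pair that did not pass was Bop1 and Gnl3. With encorafenib replicate 3 left out the list held 23 lower, and without another library 7 to 12, with 6 of the 22 falls called in every fit. Of 25 mRNAs of cytosolic ribosomal proteins, 0 rose, 19 fell and 6 did not pass the test, with a median log2 fold change of -0.56. Their fall depended on the library, with a median of -0.71 in replicates 1 and 2 and -0.33 in replicate 3, and all 25 were called without replicate 3, but only 0 to 4 without another library. Rps3 was 792, 810.5 and 779 CPM in the DMSO libraries and 457, 463 and 622 CPM in the encorafenib libraries, with replicate 3 between the controls and the other treated libraries. Some ribosomal protein genes have many processed copies, and reads could be split between them.

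Amino acid supply and chaperone genes of the ATF4 and unfolded protein response list fell in part. Of 21 members, 0 rose, 10 fell and 11 did not pass the test, with a median log2 fold change of -0.45. Slc7a11, the cystine importer, was 194, 217 and 223 CPM in the DMSO libraries and 51.7, 61.4 and 59.4 CPM in the encorafenib libraries (log2 fold change -1.88, SE 0.09, adjusted p = 1.27e-05). Phgdh, the first enzyme of serine synthesis, was 589, 579 and 558 CPM in the DMSO libraries and 216, 232 and 303 CPM in the encorafenib libraries (log2 fold change -1.21, SE 0.13, adjusted p = 0.000279). The treated libraries of both lay far below the controls in all replicates. Slc7a5 and Slc3a2, which form an importer of large amino acids, fell by 0.85 and 0.68 on the log2 scale, and the chaperone Hspa5 (BiP) by 0.64. The stress transducers themselves, Atf4 (-0.22) and Ddit3 (0.22), did not pass. In cholesterol and fatty acid synthesis, 0 rose, 6 fell and 19 did not pass the test, with a median log2 fold change of -0.27, out of 25. The falls included Elovl6 (-0.51), a fatty acid elongase, and Insig1 (-0.49), which holds the sterol sensor in the endoplasmic reticulum. In the glycolysis and hypoxia list, 1 rose, 5 fell and 18 did not pass the test, with a median log2 fold change of -0.28, out of 24. Slc2a1, the glucose importer GLUT1, was 231, 268 and 255 CPM in the DMSO libraries and 133, 147 and 169 CPM in the encorafenib libraries (-0.75), and Ldha, Eno1, Hk2 and Vegfa fell with it (-0.62, -0.63, -0.55 and -0.40), while Aldoc rose (1.22).

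In these metabolic lists the response of replicate 3 was the smaller one. The median of the glycolysis list was -0.38 in replicates 1 and 2 and -0.07 in replicate 3, and 16 genes were lower without that library, beside 2 without another. Of 23 nuclear genes of the respiratory chain, 0 rose, 5 fell and 18 did not pass the test, with a median log2 fold change of -0.30, and the medians were -0.40 and -0.07. The count lower without replicate 3 was 19, and 0 to 1 without another library. Of 15 transcripts of the mitochondrial genome, 0 rose, 5 fell and 10 did not pass the test, with a median log2 fold change of -0.57; 14 were lower without replicate 3 and 2 without another library. The falls were in the ribosomal RNAs mt-Rnr1 (-1.07) and mt-Rnr2 (-0.85), mt-Nd1 (-0.69), mt-Atp6 (-0.64) and mt-Co2 (-0.57). The ATF4 list held 0 higher and 13 lower (0 and 3 to 8 without another) and the cholesterol list 0 higher and 15 lower (0 and 0 to 4 without another) without replicate 3.

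The ranking by size took called genes with a mean of at least 2 log2 CPM over the 6 libraries and no overlap between the groups. Among these, the largest increase was in Psca, a GPI-anchored surface antigen (ENSMUSG00000022598, chromosome 15, 74714839 to 74717069, GRCm38). It was 3.47, 3.97 and 3.19 CPM in the DMSO libraries and 69.0, 73.0 and 77.6 CPM in the encorafenib libraries, a 20.7-fold difference (log2 fold change 4.37, SE 0.12, adjusted p = 1.96e-06). Lgals4, encoding the gut epithelial lectin galectin 4, was 1.01, 1.17 and 1.03 CPM in the DMSO libraries and 18.3, 17.8 and 13.0 CPM in the encorafenib libraries (log2 fold change 3.92, SE 0.25, adjusted p = 2.92e-05), and Fer1l4, a locus of the ferlin family, was 1.07, 1.17 and 1.30 CPM in the DMSO libraries and 24.1, 22.3 and 13.6 CPM in the encorafenib libraries. In both genes, replicate 3 was the lowest treated library and still far above the controls. Sprr2a3, of the cornified envelope family, was 16.6, 15.2 and 14.1 CPM in the DMSO libraries and 133, 122 and 156 CPM in the encorafenib libraries; its near-identical Sprr2a copies may share reads. Slurp1, a secreted LY6 protein of keratinising epithelia, was 9.83, 12 and 10.5 CPM in the DMSO libraries and 75.3, 82.7 and 85.0 CPM in the encorafenib libraries. Wnt4, a signal of the non-canonical WNT branch, was 2.97, 4.33 and 2.72 CPM in the DMSO libraries and 24.2, 24.6 and 29.4 CPM in the encorafenib libraries. The treated libraries of these genes were all above the controls, which was a condition of the ranking. In Sprr2a3, Slurp1 and Wnt4, replicate 3 was the highest treated library.

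The next by size were Tbx3os1 (2.99), an antisense transcript that overlaps Tbx3, Coro6 (2.89), the actin organiser Synpo (2.75), the gut peptide neurotensin, Nts (2.68), the T cell inhibitory ligand Vtcn1 (B7-H4, 2.67), the glutathione transferase Gsta4 (2.64), the phospholipase Plcd1 (2.56), the membrane-bound metalloprotease Mmp15 (2.51) and Ccdc80 (2.51). Coro6 was 7.06, 7.74 and 7.28 CPM in the DMSO libraries and 81.2, 86.9 and 23.2 CPM in the encorafenib libraries, and Tbx3os1 was 1.30, 1.76 and 1.35 CPM in the DMSO libraries and 17.2, 15.9 and 5.33 CPM in the encorafenib libraries, so in both replicate 3 showed a much smaller increase than replicates 1 and 2. Mmp15 was 37.8, 50.9 and 38.4 CPM in the DMSO libraries and 218, 227 and 277 CPM in the encorafenib libraries, Nts was 10.5, 15.2 and 14.4 CPM in the DMSO libraries and 73.7, 85.4 and 93.9 CPM in the encorafenib libraries and Gsta4 was 6.52, 6.37 and 5.37 CPM in the DMSO libraries and 38.1, 35.3 and 41.0 CPM in the encorafenib libraries. Here replicate 3 was the highest treated library.

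The largest decrease among all called genes was in Aqp8, the apical water channel of colonocytes (ENSMUSG00000030762, chromosome 7, 123462291 to 123468004, GRCm38). It was 97.4, 105 and 113 CPM in the DMSO libraries and 0.751, 3.21 and 1.68 CPM in the encorafenib libraries, a 67.0-fold difference (log2 fold change -6.07, SE 0.35, adjusted p = 2.16e-05). Dhrs9, a retinol dehydrogenase of mature colonocytes, was 45.6, 45 and 54.8 CPM in the DMSO libraries and 1.75, 3.24 and 2.22 CPM in the encorafenib libraries (log2 fold change -4.38, SE 0.20, adjusted p = 9.25e-06). Cdh17, the liver-intestine cadherin, was 51.8, 54.3 and 56.8 CPM in the DMSO libraries and 4.46, 6.61 and 6.29 CPM in the encorafenib libraries (log2 fold change -3.26, SE 0.14, adjusted p = 6.70e-06). No treated library of these 3 genes came near a control. The receptor phosphatase Ptprz1 (-3.69), the neuronal pentraxin Nptx1 (-3.17), the cell adhesion gene Nrcam (-2.90), Ly6g (-3.02), Smoc2 (-2.61), the chloride transporter Slc26a9 (-2.52), the hyaluronan synthases Has3 (-2.44) and Has2 (-2.40), osteopontin, Spp1 (-2.28), Gm14066 (-2.26), Lman1l (-2.22) and Tmem200a (-2.15) completed the list. Nrcam was 200.4, 209 and 238 CPM in the DMSO libraries and 24.3, 32.5 and 30.7 CPM in the encorafenib libraries, and Spp1 was 171, 201 and 208 CPM in the DMSO libraries and 33.9, 43.6 and 42.1 CPM in the encorafenib libraries; the treated libraries of each were within a narrow band. Has3 overlaps Chtf8, Has2 overlaps Has2os and Ly6g has close paralogs, so part of their reads may be shared.

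Differentiation genes of the colon therefore moved in both directions. Of 15 colonocyte genes in the table, 6 rose, 4 fell and 5 did not pass the test, with a median log2 fold change of 0.26. Beside Lgals4, Anpep (aminopeptidase N, 2.68), Muc13 (1.41), Car2 (carbonic anhydrase 2, 0.93), Vil1 (villin, 0.66) and Phgr1 rose, and beside Aqp8, Dhrs9 and Cdh17 the microvillus protocadherin Cdhr2 fell (-1.17). Phgr1 was 0.0776, 0.195 and 0.202 CPM in the DMSO libraries and 3.26, 3.06 and 2.51 CPM in the encorafenib libraries, with few reads on the DMSO side and an imprecise fold. Vil1, whose promoter drives the Cre, was 5.80, 6.13 and 5.73 CPM in the DMSO libraries and 9.47, 9.18 and 9.17 CPM in the encorafenib libraries. A further 13 genes of the list were not analysed here. Krt20, a keratin of surface colonocytes, was 15.5, 16.2 and 13.9 CPM in the DMSO libraries and 19.2, 18.7 and 19.8 CPM in the encorafenib libraries and did not pass (adjusted p = 0.0115), although its groups did not overlap. Without encorafenib replicate 3 the list held 7 higher and 4 lower (5 to 6 and 4 without another). Of the 10 epithelium markers, 4 rose, 3 fell and 3 did not pass the test, with a median log2 fold change of 0.25, and without replicate 3 they held 5 higher and 3 lower (3 to 4 and 1 to 2 without another).

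Ion and water transport genes gave 1 of the clearer splits. Of 16, 3 rose, 8 fell and 5 did not pass the test, with a median log2 fold change of -0.34. The falls included Aqp8, Aqp5 (-2.04) and Aqp1 (-1.12), the basolateral chloride loader Slc12a2 (NKCC1), which was 789.9, 831 and 912 CPM in the DMSO libraries and 361, 404 and 436 CPM in the encorafenib libraries (-1.08), the lactate and butyrate carrier Slc16a1 (-1.002), the sodium-proton exchanger Slc9a2 (-0.77) and the potassium channel Kcnk5 (-0.52). The rises were the epithelial sodium channel subunit Scnn1a, at 5.41, 5.22 and 4.79 CPM in the DMSO libraries and 19.0, 18.4 and 19.3 CPM in the encorafenib libraries (1.87), the bicarbonate cotransporter Slc4a4, at 34.8, 35.3 and 40.3 CPM in the DMSO libraries and 108, 103 and 123 CPM in the encorafenib libraries (1.60), and the sodium pump subunit Atp1b1 (0.88). Of 6 secretory lineage genes in the table, 1 rose, 0 fell and 5 did not pass the test, with a median log2 fold change of 0.16, and the riser was Nts. A further 14 were not analysed here, and Muc2 and Muc1 were near 0 CPM in all libraries. Among 14 intestinal transcription factors, 3 rose, 2 fell and 9 did not pass the test, with a median log2 fold change of 0.09. Cdx2 fell by 0.68 and Prdm1, which holds back adult enterocyte genes in the fetal gut, by 0.95, while Elf3 was among those that rose. The transport list held 4 higher and 8 lower (3 and 6 to 8 without another), the secretory list 2 higher and 1 lower (1 and 0 without another) and the transcription factors 3 higher and 4 lower (1 to 3 and 1 to 2 without another) without replicate 3.

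WNT feedback and stem cell genes did not move as 1 group. Of 19, 0 rose, 7 fell and 12 did not pass the test, with a median log2 fold change of -0.29. Axin2, the common reporter of beta-catenin activity, was 244, 267 and 244 CPM in the DMSO libraries and 313, 303 and 285 CPM in the encorafenib libraries, and Rnf43 was 237, 274 and 251 CPM in the DMSO libraries and 286, 292 and 308 CPM in the encorafenib libraries. Neither passed, and both were slightly higher with encorafenib. The falls were Smoc2, a stem cell matrix gene, at 12.1, 12.4 and 10.7 CPM in the DMSO libraries and 1.77, 2.25 and 1.79 CPM in the encorafenib libraries, Apcdd1 (-0.99), Tnfrsf19 (-0.73), Lrig1, Znrf3 (-0.56), Tcf7 (-0.52) and Sox9 (-0.40). Lgr5, the crypt base stem cell marker, was at most 1.46 CPM in any of the 6 libraries. YAP targets and fetal gut markers leaned the other way. Of 22, 8 rose, 2 fell and 12 did not pass the test, with a median log2 fold change of 0.37. The classical YAP target Ccn2 (CTGF) was 516, 529 and 591 CPM in the DMSO libraries and 1089, 1173 and 1359 CPM in the encorafenib libraries (1.14), with Ankrd1 at 0.87 and Amotl2 at 0.46, and of the fetal markers Psca, Msln (1.12), Krt7 (0.93), Anxa3 (0.89) and Anxa1 (0.82) rose while Clu (-0.68) and Areg fell. With encorafenib replicate 3 left out, the counts were 15 higher and 3 lower (6 to 8 and 0 to 2 without another) for the YAP list and 2 higher and 9 lower (0 and 4 to 6 without another) for the WNT list.

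Junction and keratin genes rose more often than they fell. Of 29, 12 rose, 2 fell and 15 did not pass the test, with a median log2 fold change of 0.30. The simple epithelial keratin Krt19 was 922, 920.5 and 837 CPM in the DMSO libraries and 1646, 1606 and 2088 CPM in the encorafenib libraries (0.99), and the tight junction scaffold Tjp3 was 5.27, 6.37 and 4.52 CPM in the DMSO libraries and 11.7, 9.98 and 11.2 CPM in the encorafenib libraries (1.03). Replicate 3 was the highest treated library in Krt19, and replicate 1 in Tjp3. Cldn23 (1.37), Cldn4 (0.75), the desmosome genes Jup (0.74) and Pkp1 (0.72), Krt7, Krt80 (0.92) and Krt8 (0.62) rose too. The falls were Cldn12 (-0.38) and Cldn2, which was under 1 CPM throughout. Among 19 factors of epithelial to mesenchymal transition and their opponents, 2 rose, 2 fell and 15 did not pass the test, with a median log2 fold change of -0.14. Vim, the mesenchymal filament vimentin, was 118, 109 and 116 CPM in the DMSO libraries and 35.8, 35.5 and 50.1 CPM in the encorafenib libraries (log2 fold change -1.52, SE 0.13, adjusted p = 0.000116), and Epcam fell by 0.49. The splicing regulator Esrp2 (0.73) and Grhl1 (0.79) rose. Zeb1, Snai1 and Snai2 were all under 3 CPM, and none passed. The counts were 14 higher and 2 lower (8 to 11 and 0 to 1 without another) in the junction list and 2 higher and 6 lower (1 to 2 and 1 to 2 without another) in the transition list without replicate 3.

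**Figure D4:**
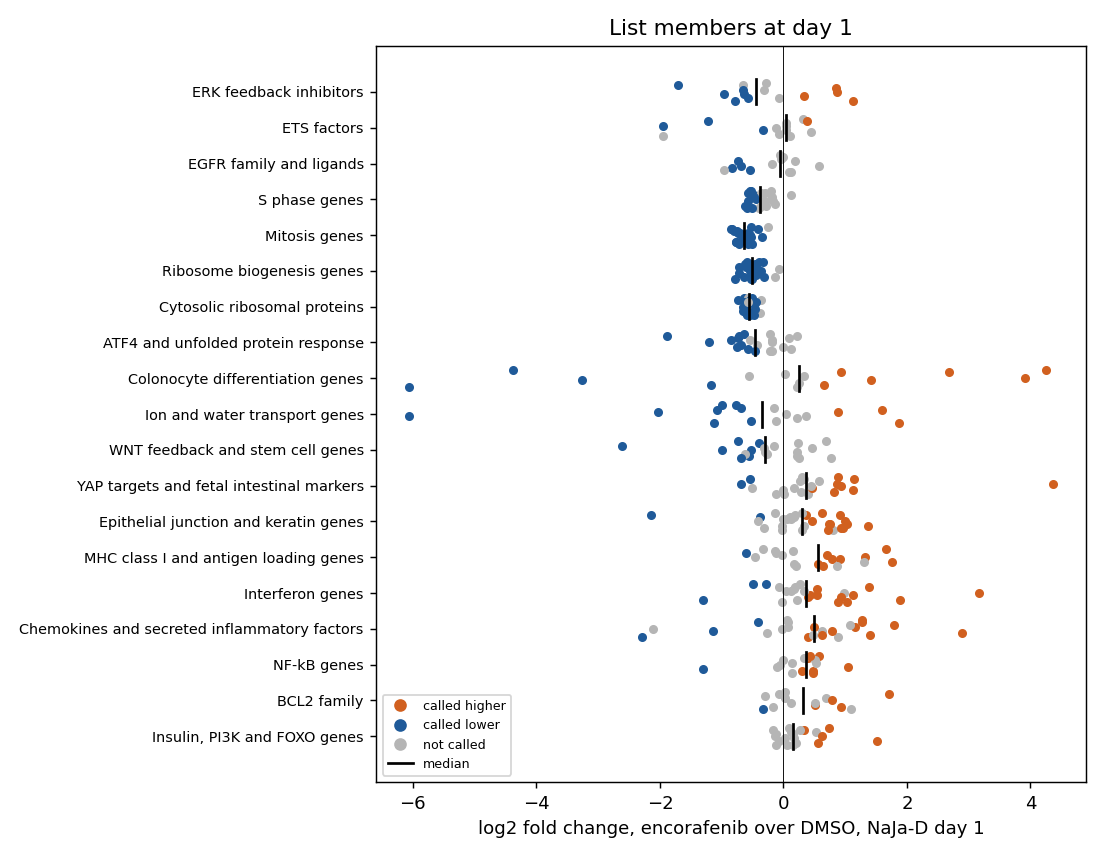
Log2 fold change of encorafenib over DMSO (horizontal axis) of every tested member of 19 gene lists (vertical axis) in NaJa-D at day 1; orange points were called higher, blue lower, grey neither, and a black bar marks the median. Mitosis and ribosome biogenesis members lie close together to the left of 0, with medians of -0.64 and -0.51, while colonocyte genes spread from -6.07 to 4.26.

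Of 14 Notch genes, 2 rose, 2 fell and 10 did not pass the test, with a median log2 fold change of -0.20. The ligand Jag1 was 123, 126 and 149 CPM in the DMSO libraries and 49.7, 55.1 and 60.2 CPM in the encorafenib libraries (-1.27) and Jag2 fell by 0.51, whereas the receptor Notch3 was 6.69, 8.52 and 5.42 CPM in the DMSO libraries and 25.1, 24.9 and 28.4 CPM in the encorafenib libraries (1.94) and the glycosyltransferase Lfng rose by 0.69. Jag1 and Jag2 were lower and Notch3 higher in every treated library than in any control, while the ligands Dll4 (0.98) and Dll1 (0.17) did not pass. Of 23 TGF-beta and BMP genes, 2 rose, 3 fell and 18 did not pass the test, with a median log2 fold change of -0.03. Bmp2 fell (-1.08), as did the TGF-beta target gene Tgfbi (-1.70), and the ligand Tgfb2 rose, at 3.47, 3.42 and 4.74 CPM in the DMSO libraries and 8.44, 9.43 and 10.6 CPM in the encorafenib libraries. Inhbb rose as well (1.86), at under 2 CPM. Tgfbi was 14.4, 19.3 and 19.4 CPM in the DMSO libraries and 4.65, 5.71 and 5.98 CPM in the encorafenib libraries, and the groups were well apart. With encorafenib replicate 3 left out, the Notch list held 5 higher and 4 lower (2 and 1 to 2 without another) and the TGF-beta list 4 higher and 5 lower (1 to 2 and 2 without another).

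Genes of antigen presentation rose in part. Cells show peptides on MHC class I after the proteasome cuts them and the TAP transporter and tapasin load them. Of 19 genes of this list in the table, 8 rose, 1 fell and 10 did not pass the test, with a median log2 fold change of 0.55. Tapbp (tapasin), which overlaps Gm19412 and Zbtb22, was 81.2, 93.9 and 90.4 CPM in the DMSO libraries and 274, 278 and 346 CPM in the encorafenib libraries (log2 fold change 1.75, SE 0.11, adjusted p = 2.45e-05). The non-classical molecule H2-T23 (Qa-1), a ligand of inhibitory NK and T cell receptors, was 13.1, 15.6 and 13.8 CPM in the DMSO libraries and 45.6, 44.4 and 43.7 CPM in the encorafenib libraries (log2 fold change 1.66, SE 0.08, adjusted p = 1.28e-05). All treated libraries of both were above the controls. The proteasome activators Psme2 (0.92) and Psme1 (0.70), Tapbpl (0.63), H2-T22 (0.55), and at low levels Tap2 and H2-Q4, rose as well, and the chaperone Canx fell (-0.61). The classical molecules did not pass. H2-K1 was 275, 339 and 326 CPM in the DMSO libraries and 323, 352 and 365 CPM in the encorafenib libraries, H2-D1 was 413, 517 and 478 CPM in the DMSO libraries and 413, 458 and 518 CPM in the encorafenib libraries and B2m was 63.4, 75.7 and 75.3 CPM in the DMSO libraries and 73.8, 82.6 and 90.2 CPM in the encorafenib libraries. Their groups overlapped, and H2 genes share reads with close paralogs. The list held 8 higher and 3 lower (4 to 6 and 0 to 1 without another) without encorafenib replicate 3. Of its genes, 6 more, among them Tap1 and Nlrc5, were not analysed here.

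Interferon genes rose in part, several of them from low levels. Of 24, 11 rose, 3 fell and 10 did not pass the test, with a median log2 fold change of 0.36. The RNA sensors Ddx58 (RIG-I) and Ifih1 (MDA5) were 17.4, 16.8 and 16.8 CPM in the DMSO libraries and 44.6, 43.2 and 45.1 CPM in the encorafenib libraries, and 8.20, 6.93 and 6.32 CPM in the DMSO libraries and 13.7, 13.7 and 16.5 CPM in the encorafenib libraries, respectively. The factor Irf1 was 17.3, 16.6 and 18.7 CPM in the DMSO libraries and 36.0, 33.1 and 27.7 CPM in the encorafenib libraries. Every treated library of these was above every control, with log2 fold changes of 1.38, 1.02 and 0.88. Stat3 (0.39), Ifi35 (0.93) and Ifngr2 (0.44) rose, as did Irf7, Oasl2 and Gbp2, each under 4 CPM. The signalling brakes Socs1 (-1.30) and Socs3 (-0.50) fell, with Jak2 (-0.28). Stat2 was 7.21, 7.93 and 8.65 CPM in the DMSO libraries and 20.4, 18.5 and 9.81 CPM in the encorafenib libraries and did not pass; replicates 1 and 2 were farther above the controls than replicate 3. Without replicate 3 the list held 13 higher and 3 lower (6 to 8 and 0 to 1 without another). The interferon-stimulated response element, searched as GAAA, any 2 bases and GAAA on either strand, was in 5 of 22 matched promoters of this list (22.7%) and 3 of 16 of the antigen loading list (18.8%), beside 2.45% of all promoters. A promoter of each list is shown from RefSeq (GRCm38.p6, 250 bases before the start, 5′ to 3′) with the element in capitals, as it reads on the gene's strand.
Gbp2, chr3:142620413-142620662, plus strand: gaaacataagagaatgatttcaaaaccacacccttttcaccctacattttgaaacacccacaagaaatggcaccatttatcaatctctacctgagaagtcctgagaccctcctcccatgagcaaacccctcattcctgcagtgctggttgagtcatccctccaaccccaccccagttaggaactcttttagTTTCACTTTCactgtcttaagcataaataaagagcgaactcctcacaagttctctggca
H2-T23, chr17:36032702-36032951, minus strand: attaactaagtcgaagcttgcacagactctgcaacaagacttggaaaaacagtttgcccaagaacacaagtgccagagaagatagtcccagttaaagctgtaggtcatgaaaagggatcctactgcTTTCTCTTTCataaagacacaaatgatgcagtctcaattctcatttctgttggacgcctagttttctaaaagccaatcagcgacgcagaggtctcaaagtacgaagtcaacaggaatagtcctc

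Gbp2, a guanylate binding protein that interferon-gamma induces, was 0.485, 0.412 and 0.742 CPM in the DMSO libraries and 1.05, 1.17 and 1.29 CPM in the encorafenib libraries, and H2-T23 rose as given above. At Gbp2's level the value rests on few reads per library.

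Of 15 checkpoint genes, ligands or regulators that restrain T cells, 2 rose, 3 fell and 10 did not pass the test, with a median log2 fold change of -0.04. Over all genes 12.2% rose and 12.9% fell, so this count is near the background. Vtcn1 was 3.72, 4.20 and 3.30 CPM in the DMSO libraries and 23.3, 23.9 and 24.4 CPM in the encorafenib libraries (log2 fold change 2.67, SE 0.11, adjusted p = 6.70e-06) and Lgals9 (galectin 9) rose by 0.89. Cd274 (PD-L1) was 3.57, 3.25 and 3.75 CPM in the DMSO libraries and 3.13, 3.55 and 2.63 CPM in the encorafenib libraries and did not pass, and Pdcd1lg2 (PD-L2) fell from a low level (2.40, 1.78 and 2.34 CPM in the DMSO libraries and 0.341, 0.686 and 0.309 CPM in the encorafenib libraries). Havcr2 (-0.92) and the NKG2D ligand Raet1e (-0.87) fell. Of 23 chemokines and secreted factors, 10 rose, 3 fell and 10 did not pass the test, with a median log2 fold change of 0.49. The neutrophil chemokine Cxcl5 was 55.2, 74.6 and 59.4 CPM in the DMSO libraries and 167, 164 and 127 CPM in the encorafenib libraries (1.27), and Cx3cl1 (fractalkine) was 12, 16.8 and 10.8 CPM in the DMSO libraries and 31.7, 32.6 and 29.8 CPM in the encorafenib libraries (1.27). Cxcl3 (1.41), Cxcl1 (1.17), Cxcl16 (0.40), Csf1 (0.49), Pdgfa (0.78) and Pdgfb (0.63) rose, and Il15 and Cxcl15 rose at under 5 CPM. Spp1, Vegfa and Csf2 (-1.15) fell. In Cxcl5 and Cxcl1 the rise was smaller in replicate 3 than in replicates 1 and 2, and the groups stayed apart. Of 16 NF-kB genes, 7 rose, 1 fell and 8 did not pass the test, with a median log2 fold change of 0.37. The subunits Relb (1.05), Rel (0.48) and Nfkb2 (0.40) and the inhibitors Nfkbia (0.57) and Tnfaip3 (0.48) rose, and Tnfaip2 fell (-1.30). In that order, the lists held 3 higher and 5 lower (2 and 2 without another), 11 higher and 4 lower (6 to 9 and 1 to 2 without another), and 8 higher and 1 lower (3 to 6 and 1 without another) without replicate 3.

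Among death genes, several promoters of apoptosis rose at low levels. Of 14 BCL2 family genes, 4 rose, 1 fell and 9 did not pass the test, with a median log2 fold change of 0.31. Bmf, a BH3-only killer protein, was 5.72, 5.20 and 3.62 CPM in the DMSO libraries and 16.9, 17.2 and 13.1 CPM in the encorafenib libraries (log2 fold change 1.71, SE 0.19, adjusted p = 0.000311), and Pmaip1 (NOXA) was 29.3, 25.5 and 23.1 CPM in the DMSO libraries and 49.0, 46.6 and 52.0 CPM in the encorafenib libraries (0.92). Bid (0.79) and Bad (0.52) rose, and the survival gene Bcl2 fell (-0.33). Bcl2l11 (BIM), whose protein ERK marks for destruction, was 33.0, 35.2 and 32.3 CPM in the DMSO libraries and 36.2, 37.6 and 29.4 CPM in the encorafenib libraries, and its groups overlapped. Of 14 caspase, gasdermin and IL-1 family genes, 3 rose, 1 fell and 10 did not pass the test, with a median log2 fold change of 0.28. Il18, an epithelial alarm cytokine, was 0.0194, 0.130 and 0.0450 CPM in the DMSO libraries and 1.46, 1.54 and 1.27 CPM in the encorafenib libraries (log2 fold change 4.57, SE 0.48, adjusted p = 0.000263), with a handful of reads per control library. Casp12 (1.91) rose at under 6 CPM. Of 18 p53 target genes, in cells with a mutant p53, 5 rose, 0 fell and 13 did not pass the test, with a median log2 fold change of 0.09. The risers were Btg2, at 2.75, 2.77 and 2.65 CPM in the DMSO libraries and 9.95, 8.96 and 7.59 CPM in the encorafenib libraries (1.69), Trp53inp1 (1.42), Plk2 (0.51), Rrm2b (0.44) and Cdkn1a. Mdm2, a direct target that follows p53 activity, was 67.8, 62.7 and 65.7 CPM in the DMSO libraries and 65.2, 65.9 and 69.2 CPM in the encorafenib libraries. Without encorafenib replicate 3 the counts were 6 higher and 3 lower (3 to 4 and 0 without another), 7 higher and 2 lower (2 to 3 and 1 without another), and 6 higher and 2 lower (2 to 4 and 0 without another), in that order.

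Of 29 matrix genes, 5 rose, 5 fell and 19 did not pass the test, with a median log2 fold change of -0.11. These counts are not far from the 12.2% of all genes that rose and 12.9% that fell. The falls were in laminins and integrins. Itga6, the laminin receptor subunit, was 1112, 1161 and 1276 CPM in the DMSO libraries and 439, 489.6 and 541 CPM in the encorafenib libraries (-1.27). Lamb1 (-1.33), Lama3 (-0.78) and Itga2 (-0.58) fell with it. Every treated library of Itga6 was below every control. The rises were Col4a5, at 9.79, 10.3 and 10.2 CPM in the DMSO libraries and 51.5, 50.2 and 45.3 CPM in the encorafenib libraries (2.28), Itgb6 (1.24), Thbs1 (0.85), Col5a1 (0.80) and Col1a1, at under 3 CPM. Of 23 proteases and their inhibitors, 9 rose, 5 fell and 9 did not pass the test, with a median log2 fold change of 0.13. Beside Mmp15, Adamts15 (2.09), Adam8 (1.91), Adamts1 (1.43), Mmp11 (1.06), Mmp14 (0.72), the urokinase Plau (0.56) and the inhibitors Timp3 (0.86) and Timp2 (0.53) rose. Serpine2 (-0.68) and, at low levels, Mmp10, Mmp13 and Adamts8 fell. Adam8 was 12.3, 15 and 14.0 CPM in the DMSO libraries and 52.2, 53 and 49.6 CPM in the encorafenib libraries. The lists held 8 higher and 12 lower (4 to 6 and 4 to 5 without another), and 9 higher and 7 lower (6 to 9 and 2 to 4 without another) without replicate 3.

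Markers of other cell types were few and low. The 8 fibroblast markers in the table summed to 2.46 to 3.21 CPM in DMSO and 4.22 to 4.83 CPM in encorafenib, and 2 of them rose (Col1a1, and Acta2 at under 1 CPM), with a median of 1.33 over values near 0. The immune markers in the table were Cd68 and Csf1r, which overlaps Hmgxb3. They summed to 5.31 to 6.15 CPM and 7.10 to 8.42 CPM, and Csf1r rose (2.76). Ptprc, the defining leukocyte marker, was not analysed here. The 5 endothelial and mesothelial markers summed to 1151 to 1409 CPM and 2388 to 3213 CPM, nearly all of it Msln, which is also on the fetal gut list, while Kdr was under 1 CPM. Msln and Upk3b (2.20) were the 2 that rose. Msln was 1143, 1383 and 1401 CPM in the DMSO libraries and 3021, 3200.0 and 2376 CPM in the encorafenib libraries. The part of other cell types in the immune and matrix lists was not tested beyond these sums. Without replicate 3 the fibroblast, immune and mesothelial markers held 4 higher and 0 lower (0 to 2 and 0 without another), 1 higher and 0 lower (1 and 0 without another), and 3 higher and 0 lower (2 and 0 without another).

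The response of NaJa-D at day 1 was set beside that of the other lines and of day 5, each by the test of the difference itself, an interaction term in limma over the 12 libraries concerned. These tests share the 6 libraries described here. Against NaJa-F the response differed in 415 genes (2.94%), against NaJa-G in 3600 (25.5%) and against NaJa-D at day 5 in 261 (1.85%). In NaJa-F 275 genes were more positive (1.95%) and 140 more negative (0.992%), in NaJa-G 1709 (12.1%) and 1891 (13.4%), and at day 5 79 (0.560%) and 182 (1.29%). Without encorafenib replicate 3 of NaJa-D these counts were 3944, 5587 and 3149, and this library therefore decided the size of the counts with NaJa-F and day 5. The split of nuclear transcripts also ran through the NaJa-F controls and both NaJa-G groups at day 1, and its part in these differences was not tested.

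Against NaJa-F, mitosis genes fell more in NaJa-D. The difference was called in 12 of 22, all less negative in NaJa-F, and the medians were -0.64 in NaJa-D and -0.22 in NaJa-F. Psca rose further in NaJa-D (4.37 and 2.30, difference -2.07 (adjusted p = 3.42e-05)), as did Lgals4 (3.92 and 1.29). The falls of Ptprz1 (-3.69 and -1.07), Aqp8 (-6.07 and -3.93) and Slc26a9 (-2.52 and -0.55) were larger in NaJa-D, and Tgfbi and Cemip, a hyaluronan-binding protein gene, fell in NaJa-D (-1.70 and -1.60) but were 0.34 and 0.34 in NaJa-F.

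Against NaJa-G, the fall of growth genes was the smaller in NaJa-D. The difference was called in 23 of 24 ribosome biogenesis genes, 20 of 24 S phase genes and 14 of 22 mitosis genes, all more negative in NaJa-G, with medians of -0.51 and -1.24, -0.38 and -1.03, and -0.64 and -1.09 in NaJa-D and NaJa-G. The ETS factor Etv4 was -1.23 in NaJa-D and -3.69 in NaJa-G (difference -2.51 (adjusted p = 8.46e-08)), and the ligand Areg was -0.55 and -3.87 (difference -3.36 (adjusted p = 8.46e-08)). Of the 13 ETS genes as a list, 4 differences were called more positive and 2 more negative in NaJa-G, with a median difference of 0.10. Of 14 feedback inhibitors, the difference was called in 8, of which 5 were more negative and 3 more positive in NaJa-G. Ivl (involucrin), of the cornified envelope, and Angptl4, a lipase inhibitor, rose in NaJa-D (0.70 and 0.79) and fell in NaJa-G (-4.13 and -2.06). Serpinb1a, a protease inhibitor gene, rose by 1.16 in NaJa-D and 6.08 in NaJa-G.

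Between day 1 and day 5 in NaJa-D, the colonocyte list had 6 of 15 genes more negative at day 5, none more positive, and medians of 0.26 and -0.42. Lgals4 was 3.92 at day 1 and 0.73 at day 5 (difference -3.18 (adjusted p = 0.000114)), Vil1 was 0.66 and -2.11, and Slurp1 was 2.92 and -0.43. The rise of Psca was larger at day 1, and the fall of Aqp8 was -6.07 and -5.93, with no difference called (0.15 (adjusted p = 0.869)). Nts rose further by day 5 (2.68 and 4.68), and Areg and Serpine2, lower at day 1, were higher at day 5 (0.51 and 0.44). Of 14 feedback inhibitors the difference was called in 2, both less negative at day 5. For ribosomal proteins the medians were -0.56 and -0.09 with no difference called, whereas they read -0.33 in encorafenib replicate 3 at day 1.

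**Figure D5:**
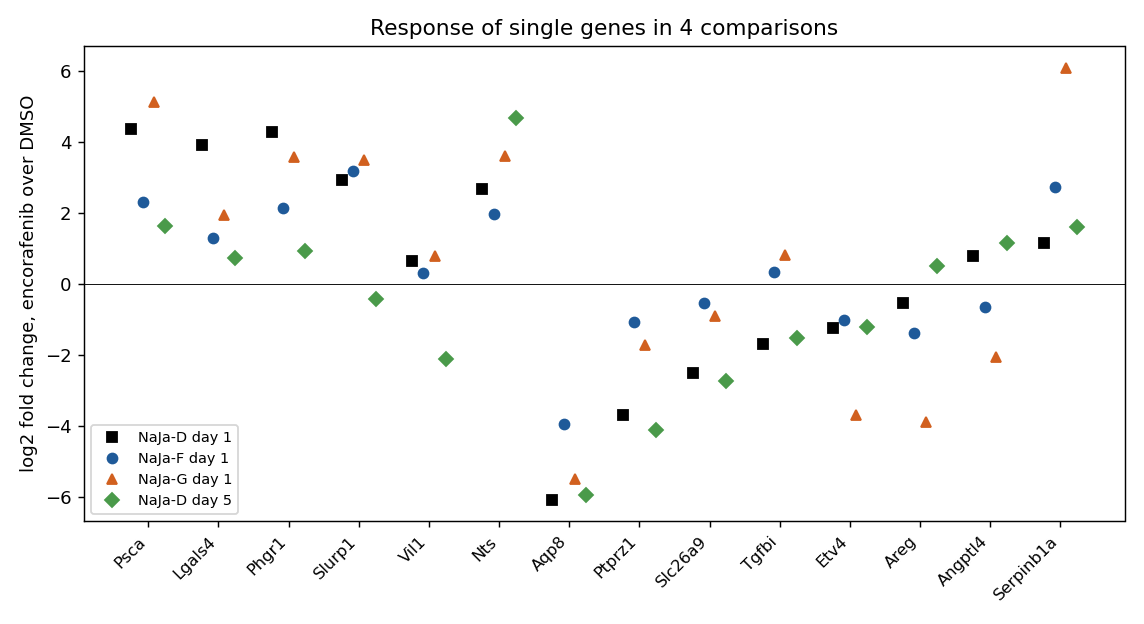
Log2 fold change of encorafenib over DMSO (vertical axis) of 14 genes (horizontal axis) in NaJa-D day 1 (black squares), NaJa-F day 1 (blue circles), NaJa-G day 1 (orange triangles) and NaJa-D day 5 (green diamonds). Lgals4 is highest in NaJa-D at day 1, at 3.92, and Etv4, Areg and Angptl4 are lowest in NaJa-G.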

How the data were processed

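RNA was sequenced from 3 DMSO and 3 encorafenib libraries of NaJa-D at day 1. The authors deposited raw counts per gene for 34 libraries, and the deposited counts were used unchanged. Per the submitters' processing notes, reads were trimmed with Trimmomatic 0.39 and aligned with STAR 2.5.2b to GRCm38. Neither the read counter nor its annotation release or strand setting is given in the sources used here. The smallest summed count of a gene over the 34 libraries was 360. Total counts of 47072398 to 67688101 per library make counting error small beside the spread between replicates, which was 11.0 to 85.0 times counting noise, and no library was a copy of another. An interval that covers only counting error would therefore understate the error.

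Counts were scaled by TMM (edgeR 4.0.16) and fitted in R 4.3.3 with limma 3.58.1 after voom weighting, on the 6 libraries, with a two-sided moderated test. Genes were called at 0.01 after Benjamini-Hochberg adjustment of the p-values of all 14107 genes. The authors' methods name limma and TMM and do not state voom. Differences of response were interaction terms over 12 libraries. Columns of CPM are TMM-scaled, and log2 CPM used a prior count of 2. GENCODE M21 gave the symbol and position of 14064 of 14107 identifiers, and 43 had none. Python 3.11.15 and matplotlib 3.10.9 drew the figures.

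The members and lists were chosen with earlier results of these data known. Lists (47 of them, plus 17 nuclear transcripts chosen after their values were seen) are described by counts and medians, with no test. The text names members of the lists, Braf, Trp53 and Apc, the 15 highest and 15 lowest called genes with at least 2 log2 CPM on average and no overlap between groups, the 10 genes farthest above and below in encorafenib replicate 3, and the 5 highest and 5 lowest called response differences on either side. Some genes that these rules name are not reported here. Same-numbered libraries of the treatments showed no clear joint deviation (r = -0.0817, 0.121 and -0.235 for replicates 1 to 3). With so few libraries these values cannot decide whether the numbers pair the samples, and the main fit used no pairing.

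Alternatives were DESeq2 1.42.0, the quasi-likelihood test of edgeR, limma-trend, a fit of all 34 libraries, sample quality weights, RLE and library size scaling, filters on low counts, the replicate block, thinning to equal depth, a GC correction (lowess span 0.3), other thresholds and leaving out each library. The fit with the nuclear transcripts as a covariate was added after seeing the data. On simulated counts for the main comparison (14107 genes, 200 changed), the procedure recovered 95 of 100 genes changed 2-fold and 50 of 100 changed 1.5-fold. There were 3 false calls and 0 of the wrong sign. Whether these values hold for the real libraries, with 3540 genes called and encorafenib replicate 3 apart, was not tested.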

Additional observations from a re-analysis of the deposited data

Results flagged for a closer look

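Encorafenib acted differently in NaJa-D at day 1 than in the compared groups for some genes, by limma's test of the difference itself. Values are the log2 fold change in the other group minus that in NaJa-D at day 1, and all had an adjusted p below 0.01.
The response differed from that of NaJa-F in 415 genes. The most positive differences among genes called in both tests were in Ptprz1 (2.62), Aqp8 (2.14), Tgfbi (2.04), Slc26a9 (1.97) and Cemip (1.94), and the most negative in Lgals4 (-2.63), Psca (-2.07), Ivl (-1.49), Angptl4 (-1.43) and Alcam (-1.30). All 10 stayed past the threshold without NaJa-D encorafenib replicate 3. Leaving that library out raised the count to 3944 genes, so this check could hardly fail. Leaving out another library lowered the count, to as few as 138.
It differed from that of NaJa-G in 3600 genes, with Serpinb1a (4.89), Apcdd1 (2.74), 4930438A08Rik (2.71), Tgfb2 (2.62) and Serpinb11 (2.61) at the positive end and Ivl (-4.87), Areg (-3.36), Slco4a1 (-2.89), Angptl4 (-2.88) and Etv4 (-2.51) at the negative end.
Between day 5 and day 1 of NaJa-D it differed in 261 genes. Nts (2.01), Cntn2 (1.51), Serpine2 (1.13) and Areg (1.07) were more positive at day 5, and Slurp1 (-3.33), Lgals4 (-3.18), Fer1l4 (-3.00), Vil1 (-2.75) and Psca (-2.73) were more negative.
Tgfbi, Cemip, Ivl, Angptl4, Areg, Serpine2, Slurp1, Vil1 and Apcdd1 had opposite signs in NaJa-D at day 1 and in at least 1 of the other groups. Explanations were not tested.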

How the results depend on the processing

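Genes changed by encorafenib numbered 3540 with all 6 libraries, 6335 with all 34 libraries in the fit, 8000 with sample quality weights, 6128 at an adjusted p below 0.05 and 876 at 1 or more, up or down, on the log2 scale. Leaving out each library in turn gave 1463 (DMSO replicate 3) to 7637 (encorafenib replicate 3), with 1842 and 1553 without DMSO replicates 1 and 2 and 2149 and 2019 without encorafenib replicates 1 and 2. edgeR (3779), DESeq2 (4867), limma-trend (3655), RLE (3551), library size (3445), filterByExpr (3647), a mean of at least 2 log2 CPM (3048), thinning (3504) and the GC correction (3807) stayed within 1.5 times, as did the nuclear covariate (4706), chosen after seeing the data. Library size scaling shifted the median of all genes to 0.11, with 2089 higher and 1356 lower. Of the 3540 genes, 3428 were called in limma, the fit of 34 libraries, edgeR, DESeq2 and the fit without encorafenib replicate 3.

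Response differences from NaJa-F (415) numbered 1335 with DESeq2, 1240 with all 34 libraries, 86 at an absolute difference of at least 1, and 138 to 3944 on leaving out 1 library. Those from NaJa-G (3600) numbered 1048 at an absolute difference of at least 1 and 2753 to 5587 on leaving out 1 library. Between day 5 and day 1 (261) they numbered 771 with DESeq2, 1029 with all 34 libraries, 115 at an absolute difference of at least 1, and 111 to 3149 on leaving out 1 library. The highest count in each came without NaJa-D encorafenib replicate 3, the lowest without NaJa-D DMSO replicate 3 for NaJa-F and day 5 and without NaJa-G encorafenib replicate 1 for NaJa-G. Library size scaling gave 390 differences with NaJa-F, 171 more positive and 219 more negative, beside 275 and 140. The causes were not tested.

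The replicate block gave 2933 changed genes, and 222, 3411 and 236 response differences from NaJa-F, from NaJa-G and between days. In the 4 groups of each response difference, 4, 10 and 5 of 18 same-numbered pairs correlated above 0.1 (from -0.859 to 0.658). With 3 libraries per group the deviations within a group are tied to each other. These values therefore cannot decide whether the numbers pair the samples, and the cause of the calls lost under the block was not tested. Of the 255 named genes that passed, 62, 88 and 90 lost the call without DMSO replicates 1, 2 and 3, 47 and 58 without encorafenib replicates 1 and 2, and 0 without encorafenib replicate 3. Some that had not passed the test had a log2 fold change of the other sign under an alternative. With library size scaling, Cdh1 was 0.0743, Gnl3 0.0331 and H2-D1 0.0826. With the nuclear covariate, Bcl2l11 was -0.14, Cdh1 0.12, H2-D1 0.0857 and Muc2 -0.91. With quality weights, Gnl3 was 0.0818 and Snai1 0.17. With all 34 libraries, H2-D1 was 0.00521. On leaving out 1 library the values ran, for Apc -0.00660 to 0.14, Bcl2l11 -0.0348 to 0.14, Cdh1 -0.13 to 0.0577, Gnl3 -0.16 to 0.11, H2-D1 -0.10 to 0.0599, Muc2 -0.0199 to 1.05, Snai1 -0.47 to 0.0432 and Zeb1 -0.23 to 0.00803.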

Other observations

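Several further groups of genes were described by their counts alone. Of 27 lysosome and autophagy genes, 4 rose, 2 fell and 21 did not pass the test, with a median log2 fold change of 0.09. Ctsl (cathepsin L) was 1676, 1887 and 2071 CPM in the DMSO libraries and 743, 868 and 983 CPM in the encorafenib libraries (-1.12), with every treated library below every control, and Wipi1 (0.63), Atp6v0d1 (0.46) and Map1lc3b (0.35) rose. Of 17 targets of the oxidative stress factor NRF2, 3 rose, 1 fell and 13 did not pass the test, with a median log2 fold change of 0.08. Gsta4 rose and Slc7a11 fell, so members of this list moved in opposite directions, and Nqo1, a standard NRF2 reporter, was 4.81, 5.37 and 4.68 CPM in the DMSO libraries and 7.69, 7.05 and 8.44 CPM in the encorafenib libraries (0.64). Of 13 heat shock genes, 1 rose, 3 fell and 9 did not pass the test, with a median log2 fold change of -0.25. The small heat shock protein Hspb1 was 57.9, 59.6 and 53.6 CPM in the DMSO libraries and 115, 119 and 174 CPM in the encorafenib libraries (1.23), highest in replicate 3, while the mitochondrial chaperones Hspd1 (-0.67) and Hspe1 (-0.62) and the cytosolic Hsph1 (-0.63) fell.

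Of 15 clock genes, 2 rose, 1 fell and 12 did not pass the test, with a median log2 fold change of 0.07. Arntl (BMAL1, 0.41) and Bhlhe40 (0.42) rose and Cry1 fell (-0.39). Of the 4 glucose sensing genes, 0 rose, 1 fell and 3 did not pass the test, with a median log2 fold change of -0.02, and the fall was that of Arrdc3, at 12.3, 14.3 and 13.7 CPM in the DMSO libraries and 7.47, 7.39 and 8.32 CPM in the encorafenib libraries. Txnip, its relative, did not pass. Of 4 replication-dependent histone genes in the table, 0 rose, 0 fell and 4 did not pass the test, with a median log2 fold change of 0.47; 11 more were not analysed here. Without encorafenib replicate 3 the counts were 5 higher and 5 lower (1 to 3 and 1 without another) for lysosome genes, 3 higher and 5 lower (1 to 3 and 1 without another) for NRF2 targets, 1 higher and 7 lower (1 and 1 to 3 without another) for heat shock genes, 5 higher and 3 lower (0 to 2 and 0 without another) for clock genes, 0 higher and 1 lower (0 and 1 without another) for the glucose sensing genes and 1 higher and 1 lower (0 and 0 without another) for histones.

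The nuclear transcripts, used as a covariate after the data were seen, gave 4706 called genes, 2491 higher and 2215 lower. With it, 8 AP-1 and immediate early genes were higher and 3 lower, and 8 NRF2 targets were higher and 2 lower, beside 3 and 3, and 3 and 1, without it. These were not the only lists that changed. The YAP and fetal list held 14 higher and 2 lower, beside 8 and 2, and the junction list 18 and 3, beside 12 and 2. The antigen loading list stayed at 8 and 1, and the mitochondrial transcripts went from 5 lower to 3.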
